A study of Mus musculus with 12 samples.

Results

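The ATP-sensitive potassium channel, the voltage-gated calcium channels and 2 further cation channels of the pancreatic beta cell were described in islets of mice that overexpress sorcin (SRI). The 9 genes were Kcnj11, Abcc8, Cacna1a, Cacna1c, Cacna1d, Cacnb2, Cacna2d1, Kcnk16 and Trpm5. Every array probe annotated with one of these symbols was taken, in the intensity table or in the authors' deposited comparison table, which gave 24 of the 45281 probes on the array. Of these, 16 probes of 8 genes were measured, meaning that their signal exceeded the negative controls (detection p under 0.05) on at least 6 of 12 arrays, as for 18315 probes in all. Those not measured were the 6 of Cacna1c, 1 of Cacnb2 and 1 of Cacna2d1.

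RNA came from islets of Langerhans of 12 male C57BL/6 mice aged 8 weeks, 6 in each of 2 groups, with 1 array per mouse. The genome of the SRI-tg10 mice held 10 copies of a transgene in which a tetracycline-inducible promoter drives SRI cDNA and luciferase, and the transactivator that responds to doxycycline was under the rat insulin promoter. Controls were their littermates. Per the series' design text, both groups ate a diet with 60% fat and drank doxycycline at 500 mg/L for 4 weeks before collection. The treatment label attached to the samples names diet and doxycycline for SRI-tg10 mice only, so treatment of the controls rests on the design text alone. If they went without, treatment and transgene cannot be told apart in the group differences. The labels do not say which transgene, if any, the controls carried. Islets were freed with collagenase and a density gradient, although the source names call the material beta cells. Beside the beta cell hormones Ins1 and Ins2, the markers Gcg of alpha cells, Sst of delta cells and Cela3b of acinar cells all had group means above a log2 level of 14, so the RNA was that of a mixed preparation. In such bulk samples, fewer beta cells and less channel RNA per beta cell cannot be told apart.

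Beta cells couple glucose to insulin release through their membrane potential. Glucose metabolism raises the ratio of ATP to ADP, which closes the ATP-sensitive potassium channel (KATP), the cell depolarizes, voltage-gated calcium channels open, and calcium entry triggers exocytosis of insulin granules. KATP is built from the pore Kir6.2 (Kcnj11) and the sulfonylurea receptor SUR1 (Abcc8). The calcium channels have a pore-forming alpha1 subunit, of the L type (Cacna1c, Cacna1d) or the P/Q type (Cacna1a), and auxiliary beta (Cacnb2) and alpha2-delta (Cacna2d1) subunits that set its surface level and gating. Kcnk16 encodes TALK-1, a background potassium channel of the 2-pore-domain family in islets, and Trpm5 a cation channel opened by intracellular calcium. Sorcin is a calcium-binding protein of the penta-EF-hand family.

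The label check came first. Sri itself, at its brightest probe, had log2 levels of 9.60 to 10.09 in controls. In SRI-tg10 islets it read 12.72 in replicate 4 and 14.81 to 14.96 in the other five mice. The difference was 4.67 ± 0.33 (SE; limma adjusted p = 1.53e-05), or 25.5-fold, with no overlap between groups (exact two-sided permutation p = 0.00216, the smallest that 924 assignments allow). Between 16271 and 20094 probes were detected per array. Control 5 had the fewest, the next lowest array having 17372.

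No channel probe passed the test between groups. With limma, 0 of 16 member probes had an adjusted p under 0.05 and 0 of 16 an unadjusted p under 0.05, against 0.0218% (0.0164% higher and 0.00546% lower) and 4.26% of all measured probes. Of the member probes, 6 had a higher mean in SRI-tg10 islets and 10 a lower one (62.5% lower, against 50.7% of all probes). Their median difference was -0.06 on the log2 scale, and that of all probes was -0.0036. The differences ran from -0.43 (Cacnb2 probe ILMN_2565436) to 0.38 (Cacna1d probe ILMN_2663841), with standard errors of 0.16 to 0.30. Groups overlapped at every member probe, and over all probes 0.169% did not overlap. For 15 of 16 member probes the 95% interval of the difference lay within 2-fold either way, as it did for 92.8% of all probes. Cacnb2 probe ILMN_2565436, with a lower bound of -1.03, was the exception. Of 10 measured beta cell markers, 6 were lower and 4 higher in SRI-tg10 islets (median -0.04). At an unadjusted limma p under 0.05, 2 of them were lower and 0 higher. These were G6pc2 at -0.45 ± 0.14 (unadjusted p = 0.00719) and Iapp at -0.37 ± 0.15 (unadjusted p = 0.0273). All 7 macrophage and dendritic cell, 3 PP cell and 3 erythroid markers were higher (medians 0.27, 0.24 and 0.15), and the other cell lists were mixed. Among the mixed lists, lymphocyte markers had 4 higher and 2 lower (median 0.52), the largest median of any cell list. Their per-array mean scores were -1.80 to 1.57 in controls and -1.66 to 2.15 in SRI-tg10 islets. Delta cell markers had 3 higher and 1 lower (median 0.22). With limma 0 of the markers in these lists passed the adjusted p. The part of cell makeup in the group differences was not tested.

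**Figure D1:**
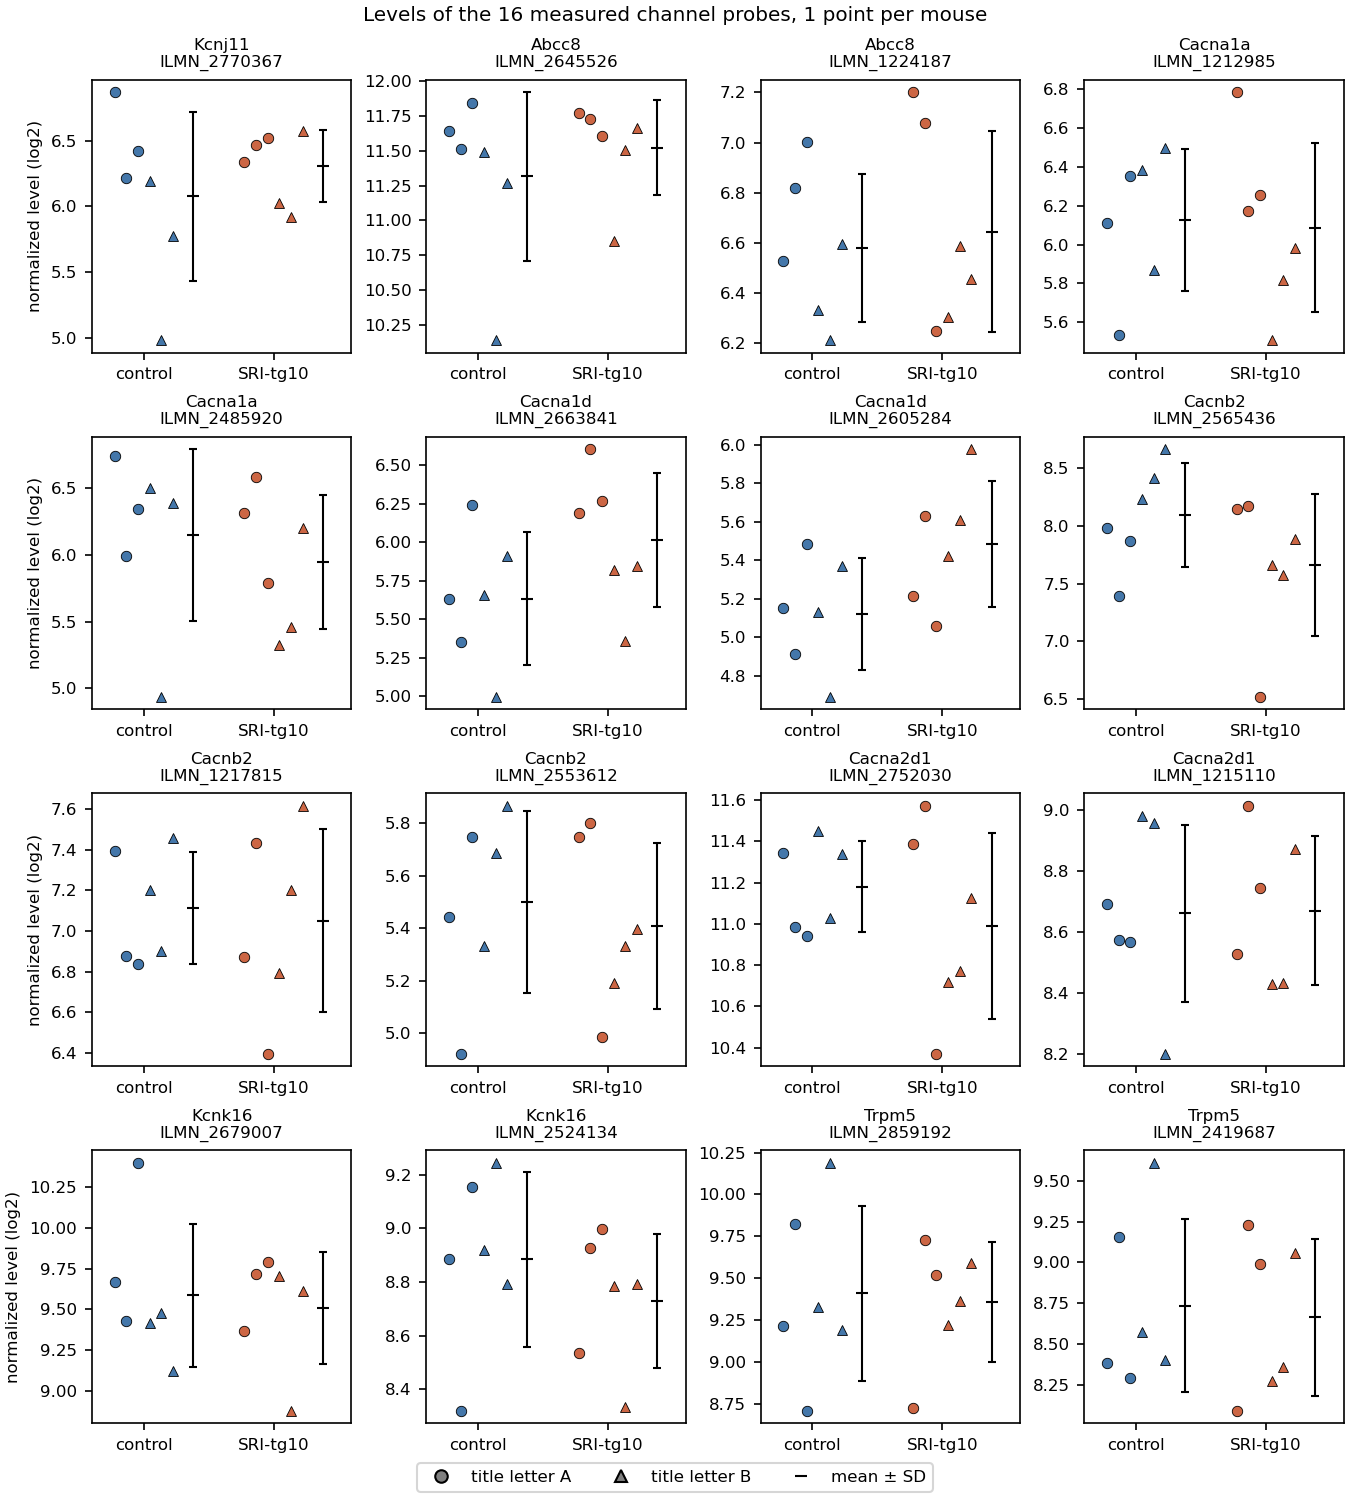
Normalized log2 level (vertical axis, its own range in each panel) of the 16 measured channel probes in 6 control (blue) and 6 SRI-tg10 islet samples (orange), 1 point per mouse, with the group mean and SD. Circles and triangles are the letters A and B of the sample titles. In every panel the groups overlap, and control 5 lies lowest in the panels of Kcnj11, Abcc8, Cacna1d and the second Cacna1a probe.

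**Figure D2:**
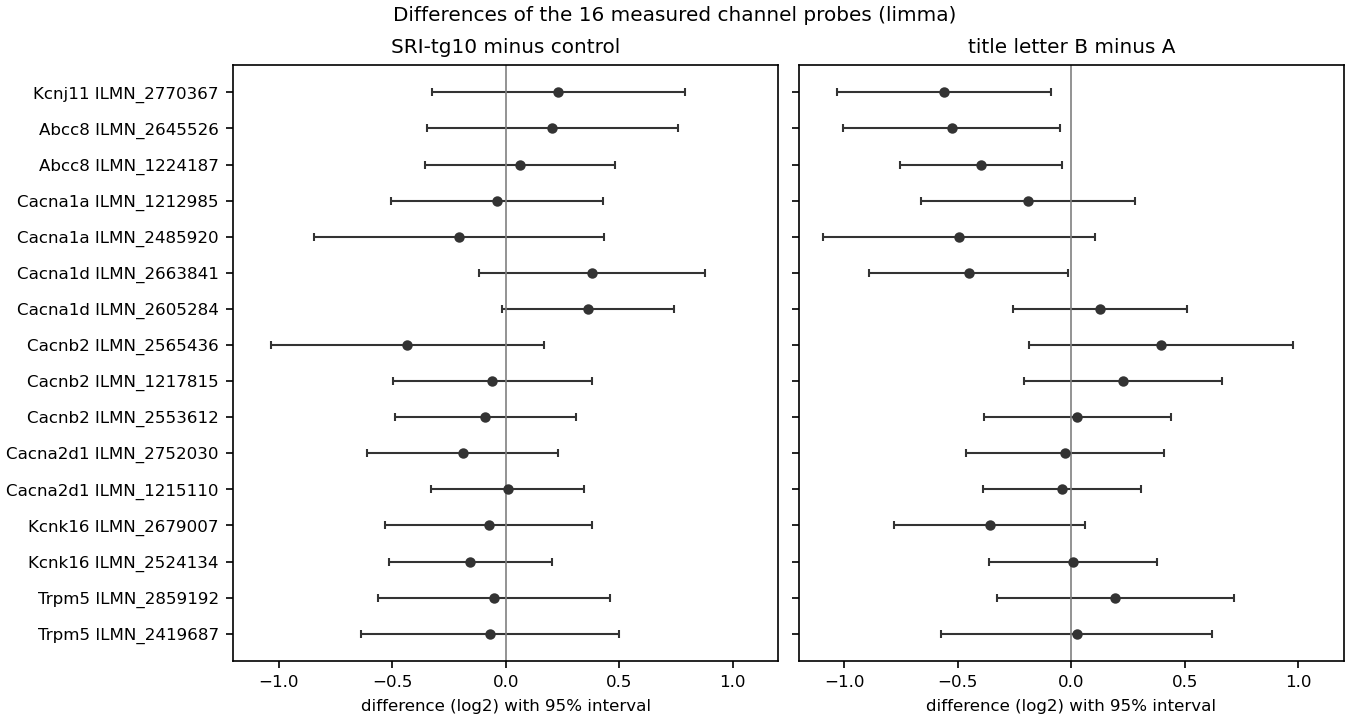
Difference in log2 level at each measured channel probe with its 95% interval, SRI-tg10 minus control on the left and title letter B minus A, with group as a term, on the right. On the left every interval includes 0; on the right the 4 intervals that do not are those of Kcnj11, both Abcc8 probes and 1 Cacna1d probe.

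Of the KATP subunits, Kcnj11, the inward-rectifier pore, was read by 1 probe (ILMN_2770367). Its log2 levels in controls 1 to 6 were 6.87, 6.22, 6.42, 6.20, 4.98 and 5.78. In SRI-tg10 replicates 1 to 6 they were 6.34, 6.47, 6.53, 6.03, 5.92 and 6.58. Control 5 was lowest, where the probe did not exceed background, control 1 was highest, and the SRI-tg10 values lay within the control range. The means were 6.08 ± 0.64 (SD, n = 6) and 6.31 ± 0.27, a difference of 0.23 ± 0.26 (SE; 95% interval -0.33 to 0.79; adjusted p = 0.928). Without control 5 the difference was 0.01.

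Abcc8, the regulatory subunit that binds sulfonylureas, had 2 probes. At ILMN_2645526 the controls read 11.64, 11.51, 11.84, 11.49, 10.14 and 11.27. The SRI-tg10 mice read 11.77, 11.72, 11.61, 10.85, 11.50 and 11.66. One array of each group stood low, control 5 and SRI-tg10 4, and the other ten lay between 11.27 and 11.84. The difference was 0.20 ± 0.26 (interval -0.35 to 0.76; adjusted p = 0.934), and -0.03 without control 5. At ILMN_1224187 controls ranged from 6.21 to 7.00 and SRI-tg10 mice from 6.25 to 7.20, a difference of 0.06 ± 0.19 (interval -0.35 to 0.48). The other KATP subunits, of vascular and muscle channels, were also measured: the regulatory Abcc9 differed by -0.14 ± 0.19 and the pore Kcnj8 by -0.07 ± 0.25, the latter detected in 5 control and 2 SRI-tg10 islets.

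Among the calcium channel pores, Cacna1c, the L-type subunit Cav1.2, was not well above background anywhere. None of its 72 values (6 probes on 12 arrays) passed detection. The lowest detection p was 0.057, with intensities from 111 to 173, so it has no fold here. RNA of Cacna1c was not detectable with these probes, which does not show that it is absent.

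Cacna1d, the L-type pore Cav1.3, had the highest positive difference of the 9 genes, at both of its dim probes. At ILMN_2663841 controls read 5.63, 5.36, 6.25, 5.66, 4.99 and 5.91. SRI-tg10 islets read 6.19, 6.61, 6.27, 5.82, 5.36 and 5.84. The 3 SRI-tg10 samples of letter A were at or near the top of the range or above it, and the other three lay among the controls. The means of 5.63 ± 0.43 (SD, n = 6) and 6.01 ± 0.43 differed by 0.38 ± 0.23 (interval -0.12 to 0.88; unadjusted p = 0.122; adjusted p = 0.922). This probe was detected in 4 control and 6 SRI-tg10 samples.

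At the second Cacna1d probe, ILMN_2605284, controls read 5.15, 4.91, 5.48, 5.13, 4.69 and 5.37. SRI-tg10 islets read 5.21, 5.63, 5.06, 5.42, 5.61 and 5.98. Here the 3 highest samples were SRI-tg10 2, 5 and 6, which are not the ones highest at the first probe, apart from replicate 2. The difference was 0.36 ± 0.18 (interval -0.02 to 0.74; unadjusted p = 0.0586, the lowest of the 16; adjusted p = 0.922), with detection in 2 control and 4 SRI-tg10 samples. Within letter A the 2 probes differed by 0.61 and 0.12 between groups, and within letter B by 0.15 and 0.61, in the order given here. Levels this close to background limit both probes.

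Cacna1a, the P/Q-type pore Cav2.1, read 6.11, 5.53, 6.35, 6.39, 5.87 and 6.50 in controls at ILMN_1212985. In SRI-tg10 islets it read 6.79, 6.17, 6.26, 5.51, 5.82 and 5.98. The groups covered nearly the same range, and their difference was -0.04 ± 0.22 (interval -0.50 to 0.43). Within letter A it was 0.40 and within letter B -0.48. That contrast between letters, -0.89 ± 0.37, was the 1 member result with an unadjusted p under 0.05 in the limma interaction test, where 2.33% of all probes had one and 0% an adjusted one (adjusted p = 1.00). At ILMN_2485920 control levels ran from 4.94 (control 5, not detected) to 6.74 and SRI-tg10 levels from 5.32 to 6.58, a difference of -0.21 ± 0.30 (interval -0.85 to 0.43).

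The auxiliary beta subunit Cacnb2, which carries pore subunits to the membrane, had the lowest difference at its brightest probe. At ILMN_2565436 controls read 7.98, 7.39, 7.87, 8.24, 8.42 and 8.67. SRI-tg10 samples read 8.15, 8.18, 6.52, 7.66, 7.58 and 7.89. Replicate 3 of the SRI-tg10 group stood below all others, and the rest overlapped the controls from 7.58 to 8.18. The difference was -0.43 ± 0.28 (interval -1.03 to 0.17; unadjusted p = 0.144; adjusted p = 0.922) and -0.20 without SRI-tg10 3. The other measured Cacnb2 probes differed by -0.06 ± 0.20 (ILMN_1217815, 6.40 to 7.61 over all arrays) and -0.09 ± 0.18 (ILMN_2553612, 4.92 to 5.87), both closer to 0; whether the probes differ from each other was not tested. The unmeasured probe ILMN_2606862 was detected on 4 arrays, 3 control and 1 SRI-tg10, at levels of 4.64 to 5.79.

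Cacna2d1, the extracellular alpha2-delta subunit, read 11.34, 10.98, 10.94, 11.45, 11.03 and 11.34 in controls at ILMN_2752030. SRI-tg10 islets read 11.39, 11.57, 10.37, 10.72, 10.77 and 11.12. SRI-tg10 replicates 3, 4 and 5 lay below every control, and replicate 2 above every control. Group means of 11.18 ± 0.22 (SD, n = 6) and 10.99 ± 0.45 differed by -0.19 ± 0.20 (interval -0.61 to 0.23; adjusted p = 0.922). At ILMN_1215110 controls spanned 8.20 to 8.98 and SRI-tg10 samples 8.43 to 9.01, with a difference of 0.01 ± 0.16. The remaining probe, ILMN_2568719, was detected on 1 array.

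The promoters of Cacnb2 and Cacna2d1 are shown because the brightest probes of this pair correlated over the arrays (Pearson's r = 0.81), as given further on. Against the other measured Cacna2d1 probe, the Cacnb2 probes gave r of only -0.02 to 0.11. Kcnj11 and Abcc8, with r = 0.86 at their brightest probes, had no promoter sequence to show. The sequences are RefSeq's on build GRCm38.p6, where 6 of the 9 genes matched, with 250 bases before and 50 after the annotated start, 5′ to 3′ on the gene's strand. Capitals mark matches on either strand to the core letters bound by NFAT (GGAAA) or to the GC box (GGGCGG). Cacnb2 has 2 annotated starts.
Cacnb2, chr2:14604056-14604355, plus strand: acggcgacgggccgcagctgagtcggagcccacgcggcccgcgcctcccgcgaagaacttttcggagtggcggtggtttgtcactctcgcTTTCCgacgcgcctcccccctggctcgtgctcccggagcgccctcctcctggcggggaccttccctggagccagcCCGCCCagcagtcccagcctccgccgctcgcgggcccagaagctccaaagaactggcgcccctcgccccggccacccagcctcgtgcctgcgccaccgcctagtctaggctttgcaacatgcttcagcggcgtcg
Cacnb2, chr2:14823842-14824141, plus strand: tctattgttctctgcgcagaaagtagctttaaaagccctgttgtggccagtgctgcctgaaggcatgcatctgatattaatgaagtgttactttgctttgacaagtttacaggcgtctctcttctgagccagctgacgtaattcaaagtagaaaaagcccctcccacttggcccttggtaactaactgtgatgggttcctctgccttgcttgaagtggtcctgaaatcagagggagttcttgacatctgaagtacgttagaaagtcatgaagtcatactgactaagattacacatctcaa
Cacna2d1, chr5:15934441-15934740, plus strand: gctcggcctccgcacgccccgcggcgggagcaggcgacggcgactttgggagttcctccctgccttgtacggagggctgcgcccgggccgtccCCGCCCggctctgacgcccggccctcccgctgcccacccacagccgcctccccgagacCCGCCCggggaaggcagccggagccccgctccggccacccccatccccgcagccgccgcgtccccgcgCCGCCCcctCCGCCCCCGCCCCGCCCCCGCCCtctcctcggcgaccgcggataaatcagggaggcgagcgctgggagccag
The first Cacnb2 window holds 1 GGAAA and 1 GGGCGG match at a GC content of 71.7%. The second holds neither at 44% GC, and the Cacna2d1 window holds 7 GGGCGG matches at 80% GC. Of 32851 such windows in the table, 61.3% hold GGAAA and 35.7% GGGCGG. None of the 3 windows holds CACGTG (an E-box, in 7.15% of windows), TGACGTCA (the cAMP response element, 1.79%) or TATAAA (the TATA box, 13.6%). These are matches of letters only.

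Kcnk16 gave bright signals from 2 probes. At ILMN_2679007 controls read 9.67, 9.43, 10.40, 9.42, 9.48 and 9.12, and SRI-tg10 samples 9.37, 9.71, 9.79, 9.70, 8.88 and 9.61. Control 3 stood highest and SRI-tg10 5 lowest, with overlap elsewhere. The difference was -0.07 ± 0.21 (interval -0.53 to 0.38), and at ILMN_2524134, with 8.32 to 9.24 over all arrays, it was -0.16 ± 0.17 (interval -0.52 to 0.20). Trpm5 was as close to even. Its levels at ILMN_2859192 were 9.21, 9.83, 8.71, 9.33, 10.19 and 9.19 in controls and 8.72, 9.73, 9.52, 9.22, 9.36 and 9.59 in SRI-tg10 samples. Control 5, the lowest array for Kcnj11 and Abcc8, was the highest for Trpm5. Differences were -0.05 ± 0.24 (interval -0.56 to 0.46) and, at ILMN_2419687, -0.07 ± 0.26 (interval -0.64 to 0.50).

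Other channel genes were read from 9 lists by family. Of 150 listed genes that are no members, 52 had a measured probe; with limma 0 of them passed the adjusted p and 3 had an unadjusted p under 0.05, with 29 higher and 23 lower and a median of 0.03. The 3 were Kcna1, a delayed-rectifier potassium channel, at -0.70 ± 0.23, Trpc4, a receptor-operated cation channel, at -0.61 ± 0.25, and Kcnk13 of the 2-pore-domain family at 0.28 ± 0.12 (limma adjusted p = 0.922 for each). Kcna1 and Trpc4 were each detected in 2 of 6 SRI-tg10 samples, so their differences lie at the edge of background. Among calcium channels, the T-type pore Cacna1h differed by 0.59 ± 0.31 (means 6.53 ± 0.80 in controls and 7.11 ± 0.29), with control 5 at 4.95 and not detected. Of the other beta subunits Cacnb3 was at 0.34 ± 0.20 and Cacnb4 at -0.30 ± 0.19.

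The families had medians between -0.26 and 0.38, and none had a member past the threshold. Farthest from 0 were the sodium channels, with 1 of 5 measured genes higher (median -0.26; Scn9a -0.32 ± 0.23, Scn3a -0.26 ± 0.21), and the calcium channel pores, with 2 of 3 higher (median 0.38). Voltage-gated potassium channels had 7 of 11 higher (median 0.09), among them Kcnh2, the HERG channel, at 0.43 ± 0.22. The 2-pore-domain list had 5 of 7 higher (median 0.10; Kcnk1 at -0.28 ± 0.13), TRP channels 4 of 8 (median -0.02; Trpm7 at -0.36 ± 0.25), calcium-activated and other inward-rectifier potassium channels 3 of 9 (median -0.04; Kcnj12 0.52 ± 0.25, Kcnmb4 0.31 ± 0.23), and HCN and chloride channels 6 of 8 (median 0.03; Hcn2 0.27 ± 0.28, Clcn3 -0.18 ± 0.13). KATP subunits stood at 2 of 4 (median 0.07) and the auxiliary calcium channel subunits at 2 of 5 (median -0.19). The median over all measured genes was 0.00.

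**Figure D3:**
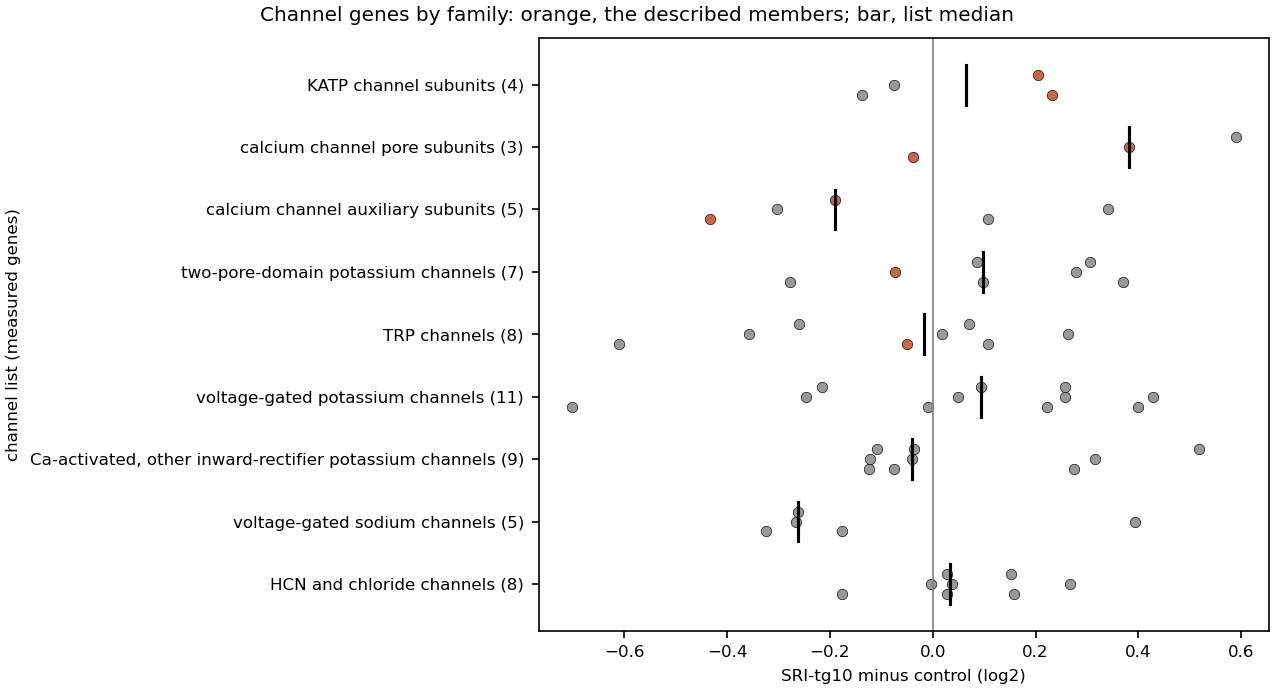
Difference in log2 level between SRI-tg10 and control islets for every measured gene of 9 channel families, 1 point per gene at its brightest probe, with orange for the described genes and a black bar at each family's median. In every family the points lie on both sides of 0, with family medians from -0.26 for sodium channels to 0.38 for the calcium channel pores.

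Each sample title begins with A or B, which nothing in the labels explains. Each letter covers 3 mice per group. Letter B samples had lower levels at 4 of 16 member probes at an unadjusted limma p under 0.05 (25%, against 11.1% of all probes lower in B at that limit and 16.8% in either direction). With limma's adjusted p, 0 of 16 passed, against 0.0928% of all probes, and the lowest member value was 0.236. At no member probe were the letters without overlap, against 1.92% of all probes. Of these 4, 3 were the KATP probes: Kcnj11 at -0.56 ± 0.22 (SE), Abcc8 at -0.53 ± 0.22 and -0.40 ± 0.16. The remaining one was Cacna1d probe ILMN_2663841 at -0.45 ± 0.20. Without control 5, which is a letter B array, the Kcnj11 value was -0.39 and that of Abcc8 probe ILMN_2645526 was -0.32. In that fit 2 member probes had an unadjusted limma p under 0.05. SRI-tg10 4, the other array low at this Abcc8 probe (10.85), is also of letter B. The remaining B arrays read 11.49, 11.27, 11.50 and 11.66 there, and the A arrays 11.51 to 11.84. Over all probes, limma called 17 between letters, and 4 without SRI-tg10 4.

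Across the other channel genes, 35 of 52 were lower in letter B (53.9% of all probes were), with a median of -0.16. With limma, 12 of the 52 were lower and 1 (Kcnj8) was higher at an unadjusted p under 0.05, against 11.1% of all probes lower and 16.8% in either direction, and 0 passed the adjusted p. Voltage-gated potassium channels were lower in 10 of 11 genes (median -0.32), and all 5 measured sodium channel genes were lower (median -0.34). The single genes with the strongest values among those named here were Cacnb3 at -0.53 ± 0.14 (limma adjusted p = 0.142) and Hcn2, a pacemaker channel, at -0.67 ± 0.21 (adjusted p = 0.177). Named genes were chosen by their group difference. Others of the 52 had letter differences as low as -0.81 ± 0.22 (limma adjusted p = 0.144). Beside these, 7 of 10 beta cell markers were lower in letter B (median -0.14), with per-array mean scores of -0.03 to 0.15 in A and -0.24 to 0.09 in B. All 6 lymphocyte markers were higher in letter B (median 0.82), with scores of -1.66 to 0.81 in A and -1.80 to 2.15 in B. All 3 erythroid markers were higher too (median 0.48), and the other cell lists were mixed. Of the lymphocyte and erythroid markers, 0 had an unadjusted limma p under 0.05 between letters. The part of cell makeup in the letter difference was not tested. Centring each array on its median in place of quantile normalization moved the letter difference of all probes to a median of -0.16, from -0.03, and that of the members to -0.22.

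Single arrays carried much of the spread. Control 5 was the lowest of 12 arrays at 6 of 16 member probes (37.5%), those of Kcnj11, both Abcc8, 1 Cacna1a and both Cacna1d probes. It was also lowest at 23.6% of all measured probes and at 13 of 52 other channel genes (25.0%). At 3 member probes, both of Trpm5 and 1 of Kcnk16, it was the highest, as at 20.3% of all probes. Its mean correlation with the other arrays was 0.934, against 0.953 to 0.966. Control 5 also had the highest erythroid marker score (1.87, others -1.88 to 1.34, over 3 measured markers) and duct score (0.46, others -0.55 to 0.45, over 5), and the lowest PP cell score (-0.56, others -0.17 to 0.36, over 3) and stellate cell, pericyte and smooth muscle score (-0.49, others -0.45 to 0.28, over 8), while its beta cell score of -0.07 lay within that of the others (-0.24 to 0.15). What part these had in its channel levels was not tested. SRI-tg10 3 was lowest at 3 member probes, 2 of Cacnb2 and 1 of Cacna2d1, and at 15.1% of all probes.

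**Figure D4:**
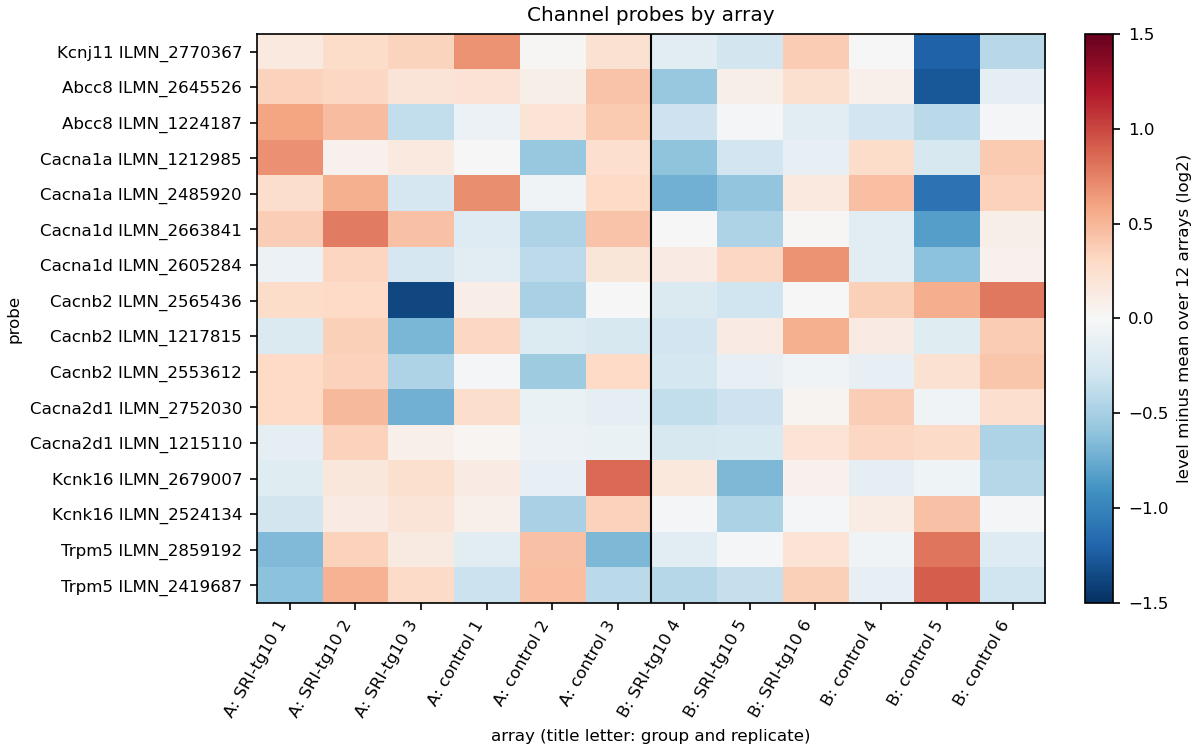
Level of each measured channel probe on each array minus its mean over the 12 arrays (log2; red above, blue below), with arrays grouped by title letter. Among the darkest cells are control 5 at Kcnj11, Abcc8, Cacna1a, Cacna1d and Trpm5, SRI-tg10 3 at Cacnb2 and control 3 at Kcnk16.

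Probes of the same gene were set against each other over the 12 arrays to see how far they report one level. All 9 such pairs correlated positively, with Pearson's r of 0.25 to 0.92. The 2 arrays farthest from the median were picked at the brighter probe of each pair only. Trpm5 agreed best (r = 0.92, rho = 0.87, permutation adjusted p = 9e-05, the smallest these resamples allow, and 0.00387 over 9 pairs; r = 0.92 without the 2 arrays farthest from the median, 0.95 within letter A and 0.96 within letter B). Next came Cacnb2 probes ILMN_2565436 and ILMN_2553612 (r = 0.80, rho = 0.73, permutation adjusted p = 0.00324 and 0.0395; r = 0.74 without the 2 farthest arrays, 0.83 within A and 0.87 within B). No other pair passed the adjusted p for both coefficients. The Abcc8 pair had r = 0.60 (permutation adjusted p = 0.0528), Kcnk16 0.63 and Cacna1a 0.59, while Cacna2d1 had 0.25. For Cacna1d r was 0.46, with 0.05 without control 5 and SRI-tg10 2, 0.78 within letter A and 0.64 within letter B.

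Between genes, 16 of 28 pairs of brightest probes were positive, with a median r of 0.13. Kcnj11 and Abcc8, the 2 subunits of the KATP channel, had r = 0.86 (permutation adjusted p = 0.0279 over 28 pairs) and rho = 0.75 (adjusted p = 0.110). The relation rested in part on single arrays: r was 0.67 without control 1 and control 5, 0.61 without control 5 alone, 0.02 within letter A and 0.87 within letter B. With the other Abcc8 probe r was 0.34. Both brightest probes were lower in letter B (-0.56 and -0.53), and the resamples shuffled arrays across letters. Cacnb2 and Cacna2d1, 2 auxiliary subunits of one channel complex, had r = 0.81 (permutation adjusted p = 0.0279) and rho = 0.74 (adjusted p = 0.110). Here r was 0.65 without control 6 and SRI-tg10 3, the arrays farthest from the Cacnb2 median. It was 0.94 within letter A and 0.76 within letter B.

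The further probes of this pair, chosen after these values were seen, gave r of 0.70 for Cacnb2 ILMN_1217815 and 0.63 for Cacnb2 ILMN_2553612 against Cacna2d1 ILMN_2752030 (permutation adjusted p = 0.0695 and 0.0879 over 6 pairs). Against Cacna2d1 ILMN_1215110 the 3 Cacnb2 probes gave -0.02 to 0.11. One of these, with Cacnb2 ILMN_2565436, changed from 0.02 to 0.73 without control 6 and SRI-tg10 3, so at this probe the coefficient depended on those arrays. No pair of genes passed the adjusted p for both coefficients.

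**Figure D5:**
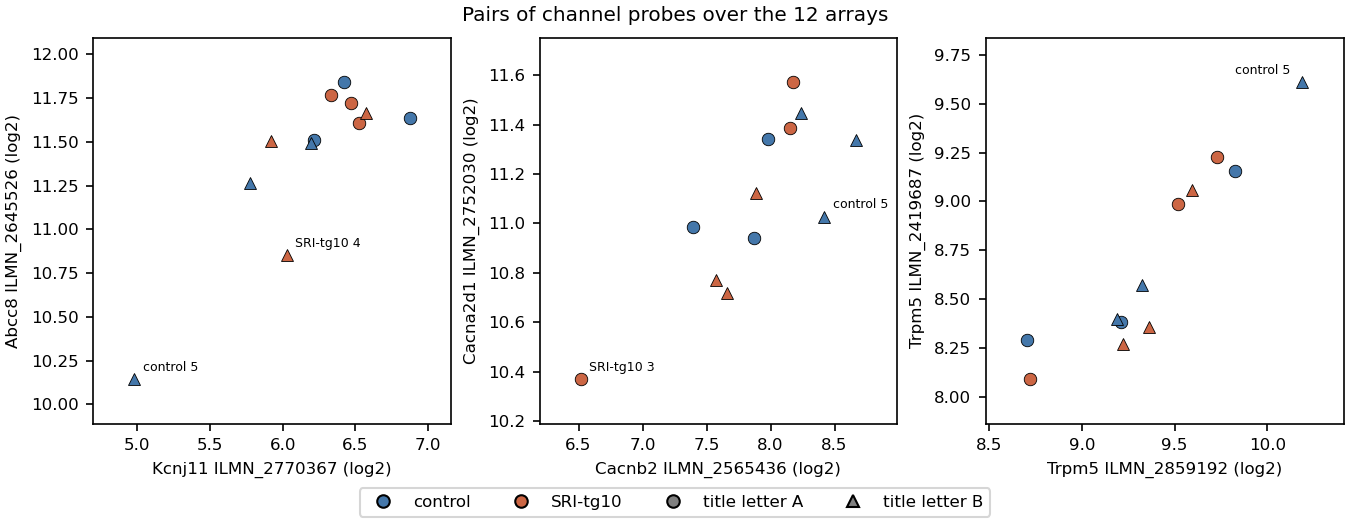
Log2 levels of 3 pairs of probes on 12 arrays: Kcnj11 against Abcc8, Cacnb2 against Cacna2d1, and the 2 Trpm5 probes; colours are groups, circles and triangles title letters A and B. Control 5 lies apart at the low end of the first panel and SRI-tg10 3 at the low end of the second, while the Trpm5 probes line up over all arrays.

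The genes whose pattern was most like that of each channel gene were found after subtracting the mean of each group and letter, over 12 arrays and 16241 to 16243 probes of other named genes, and their correlations are a description. For Kcnj11 they were Tdg (r = 0.97) and Ppl (0.97), and for Abcc8 Nphp4 and Anxa6 (both 0.99). Cacna1a was followed by Tcfcp2 and Aqr (both 0.94), Cacna1d by Cutal (0.98) and Pard3 (0.95), and Cacnb2 by C87860 and Top3b (both 0.97). Cacna2d1 was most like Cul3 (0.98) and Trip12 (0.97), Kcnk16 like Ndufb8 (0.98) and Tmem176a (0.97), and Trpm5 like Dmrtc1a (0.95) and Arpc5l (0.94). These are the highest of many values over few arrays.

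The authors' deposited table lists 18 of the 24 channel probes, all but those of Cacna1c. Its log2 fold changes for them ran from -0.21 to 0.28, with a lowest adjusted p of 0.828. One probe in the authors' deposited table had an unadjusted p under 0.05, Cacna1d ILMN_2605284 at 0.28 (p = 0.0369). Of the 16 measured probes, 11 had the same sign in the authors' deposited table and in the fit described here, and the largest gap between them was 0.22.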

How the data were processed

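Illumina bead arrays measured RNA of 12 islet samples. The deposited table, made with GenomeStudio (version not stated) per the submitters' processing notes, holds the mean bead intensity per probe and array on the linear scale, and a detection p-value against negative controls, per the file headers. The values show no background subtraction and no scaling of arrays to each other. The authors' deposited comparison table gives log2 fold changes, mean log2 levels, a t score and p-values, per the file headers; its model is not stated, and its direction was taken as SRI-tg10 minus control because Sri is positive there. In the deposited matrix of processed log2 values, 10 of 12 columns ranked the probes exactly like an array of another sample, 6 of them of the other group, so it was used for no result. The intensity table's own titles were followed, which the Sri levels bear out.

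Intensities were background-corrected, quantile-normalized and log2-transformed with neqc (offset 16, negative control level inferred from detection p) in limma 3.58.1 under R 4.3.3. Kept probes had a detection p under 0.05 on 6 or more arrays. Each was tested with lmFit and eBayes over all 18315 kept probes, with Benjamini-Hochberg adjustment and a threshold of 0.05, for SRI-tg10 minus control, for title letter B minus A with group as a term, and for their interaction. Errors are SD of a group or moderated SE of a difference. The number of arrays limits the precision. Each mouse has its own number in the labels. Nothing in them says how samples were processed together, and what the letter marks is not stated. A gene stands for its brightest kept probe. Every probe of the 9 genes is named, of each channel family up to 2 genes with the smallest unadjusted p, and for each channel gene the 2 likest genes. Correlations and their 100000 resamples were computed with NumPy 2.4.6, and ranks and adjusted p with SciPy 1.17.1, under Python 3.11.15. The fits were tested on simulated data. The genes, lists and tests were chosen with earlier results of these data known. Alternatives were other background corrections, offsets, normalizations and filters, the letter as a term or within letters, array weights, and each array left out in turn.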

Additional observations from a re-analysis of the deposited data

Results flagged for a closer look

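Among 68 sets of 6 samples examined, 9 had 1 sample far from the others by Dixon's test, and chance alone flags about 1 in 20. The sets share the same arrays and some are probes of the same gene. They are not independent, so the 9 cannot be weighed against that share. Of the 32 sets of channel probes described above, 3 were among them. All 9 samples lay on the low side. Abcc8 probe ILMN_2645526 was low in control 5, at 10.14 against 11.27 to 11.84 in the other controls, and in SRI-tg10 4, at 10.85 against 11.50 to 11.77. Cacnb2 probe ILMN_2565436 was low in SRI-tg10 3, at 6.52 against 7.58 to 8.18. Sri was lower in SRI-tg10 4, at 12.72 against 14.81 to 14.96 in the other transgenic samples, and above every control.

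Of the other channel genes named, Cacna1h in control 5 was at 4.95, where it was not detected, against 6.51 to 7.20. Trpm7 in control 2 was at 6.33 against 6.82 to 7.06. Kcnh2 was low in control 5, at 8.32 against 9.16 to 9.65, and in SRI-tg10 4, at 9.01 against 9.70 to 9.85. Hcn2 in SRI-tg10 4 was at 7.56 against 8.41 to 8.77. SRI-tg10 4 and control 5 were the samples in 7 of the 9.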

How the results depend on the processing

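No member probe passed the adjusted threshold under any alternative, in 347 values of the group difference (lowest adjusted p 0.679) and 299 of the letter difference (0.160). Of the group values 40 changed sign, and 4 of 16 probes never did: both Cacna1d probes, Cacna1a ILMN_2485920 and Cacnb2 ILMN_2565436. Of the letter values 30 changed sign, at 5 of 16 probes. No paired analysis was possible because replicates of the 2 groups share no mouse number or title. The deposited matrix of processed values was not tested in place of the intensities, as its columns did not match their samples. Depth of signal limits Cacna1d, Cacna1c and the dimmest Cacnb2 probe. It also limits Kcnj11 and Cacna1a ILMN_2485920 in control 5, where they were not detected. Their levels there, 4.98 and 4.94, lay in the range of the undetected Cacna1c probes (4.45 to 5.24).

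Group differences that changed sign: with median centring, Cacna2d1 ILMN_1215110 was at -0.0074. Within letter A, Kcnj11 was at -0.060, Cacna1a ILMN_1212985 at 0.40, Cacnb2 ILMN_2553612 at 0.14, Cacna2d1 ILMN_2752030 at 0.020, Kcnk16 ILMN_2524134 at 0.035 and Trpm5 at 0.074 and 0.16. Within letter B, Cacnb2 ILMN_1217815 was at 0.017, Cacna2d1 ILMN_1215110 at -0.13 and Kcnk16 ILMN_2679007 at 0.058. With array weights, Cacnb2 ILMN_2553612 was at 0.030 and Trpm5 at 0.059 and 0.12. On leaving out 1 array, the ranges were Abcc8 ILMN_2645526 -0.029 to 0.34, Abcc8 ILMN_1224187 -0.047 to 0.15, Cacna1a ILMN_1212985 -0.18 to 0.079, Cacnb2 ILMN_1217815 -0.17 to 0.071, Cacna2d1 ILMN_1215110 -0.085 to 0.072, Kcnk16 ILMN_2679007 -0.17 to 0.088, Trpm5 ILMN_2859192 -0.19 to 0.10, Trpm5 ILMN_2419687 -0.18 to 0.10. Letter differences that changed sign: Cacnb2 ILMN_2553612, Kcnk16 ILMN_2524134 and Trpm5 ILMN_2419687 were at -0.042, -0.18 and -0.15 with median centring and at -0.078, -0.047 and -0.039 with array weights. On leaving out 1 array, the ranges were Cacnb2 ILMN_2553612 -0.099 to 0.12, Cacna2d1 ILMN_2752030 -0.17 to 0.098, Cacna2d1 ILMN_1215110 -0.12 to 0.058, Kcnk16 ILMN_2524134 -0.12 to 0.097, Trpm5 ILMN_2419687 -0.17 to 0.15.

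Over all probes, 3 to 5 were called between groups on leaving out 1 array (4 with all) and 0 within letter B. Between letters 17 were called, 4 (without SRI-tg10 4) to 19 on leaving out 1 array, 9 among probes detected on all 12 arrays and 38 with array weights. Sri was at 4.59 to 5.02 on leaving out 1 array, and at 4.30 within letter B (adjusted p 0.883). Member probes with an unadjusted p under 0.05, a count added after seeing the data, were 0 to 2 between groups and 1 to 4 between letters on leaving out 1 array. Otherwise the group count was 1 with no filter (a probe not among the 16), within letter A and with array weights and 2 within letter B, and the letter count was 2 among probes detected on all arrays, 5 with no filter and 3 or 4 under the others. Among the 16, Cacna1d and Cacnb2 ILMN_2565436 gave the group values under 0.05, the latter at -0.73 within letter B (unadjusted p = 0.00681; adjusted p = 0.884).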
